A study of Mus musculus with 12 samples.

Results

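The genes described here encode the nuclear subunits of the mitochondrial respiratory chain and ATP synthase, with their assembly factors, in cultured stromal cells from 3 mouse tissues. Members were all array entries whose annotated gene symbol starts with Nduf, Uqcr, Sdh, Cox4 to Cox8 or Atp5, kept where the detection fraction was above 0.95 on at least 4 of the 12 arrays. Of 143 such entries, 117 were kept, among 20649 kept of 45281 entries in the whole series. They stand for 83 of 91 listed genes: 70 structural subunits, 11 assembly factors, the pseudogene Ndufs5-ps and the supercomplex factor Cox7a2l.

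Groups of 4 arrays each were compared: MSC-like cells derived from kidney, MSC-like cells derived from heart, and classical mesenchymal stem cells (MSC) derived from bone marrow. MSC are fibroblast-like cells that grow on plastic and can form bone, fat and cartilage. Total RNA was hybridised to single-colour Illumina bead arrays, and the submitters call the 4 samples of a tissue biological replicates. The strain, age and sex of the mice, the culture passage and any pooling of animals were not stated in the sources consulted, so each p-value reflects only how far these samples differ among themselves.

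The respiratory chain moves electrons from NADH through complex I (NADH dehydrogenase) or from succinate through complex II (succinate dehydrogenase) to coenzyme Q, then through complex III and cytochrome c to complex IV (cytochrome c oxidase), which reduces oxygen. Complexes I, III and IV pump protons, and complex V (ATP synthase) uses the gradient to make ATP. The catalytic cores of complexes I and III combine mitochondrially encoded proteins with nuclear ones, while that of complex IV is mitochondrially encoded, and nuclear accessory subunits surround all of them. Cultured stromal cells are known to rely much on glycolysis, and a few complex IV subunits exist as paralogues used in particular tissues such as heart and skeletal muscle.

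Mean raw signal was 1004 to 1049 on kidney arrays, 935 to 1066 on heart arrays and 754 to 950 on bone marrow arrays. MSC-defining surface genes were detected on all 4 arrays for 6 of 7 in kidney-derived cells, 7 of 7 in heart-derived cells and 6 of 7 in bone marrow MSC. None of 9 cardiomyocyte markers was detected on all 4 arrays of any tissue, and summed cardiomyocyte signal was 267 to 323 in kidney, 276 to 327 in heart and 274 to 323 in bone marrow cells. Of 10 renal tubular markers, 3, 2 and 2 were detected on all 4 arrays in kidney, heart and bone marrow cells, with summed signals of 590 to 631, 468 to 508 and 420 to 446 in that order. Of 6 endothelial markers, 1 was so detected in kidney-derived cells (Emcn) and 0 in the others, and their sum was 577 to 608 in kidney, 198 to 265 in heart and 206 to 248 in bone marrow cells. Of 5 brown adipocyte markers Prdm16 alone was so detected, in kidney- and heart-derived cells, and their sum was 189 to 200 in kidney, 367 to 380 in heart and 149 to 179 in bone marrow cells. Of 7 macrophage markers, 2 were so detected in each tissue, with sums of 322 to 369, 341 to 403 and 274 to 342 in the same order. The part of these marker differences in the results below was not tested. In such bulk samples, fewer cells of a type and less RNA per cell cannot be told apart.

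The respiratory chain was expressed in all 3 tissues, and its members differed between them by small amounts. Of the 83 genes, 80 were detected on all 12 arrays. The exceptions were Cox6a2 (missed on 1 bone marrow array), Ndufb4 (missed on 1 array) and Cox6b2, whose kept entry was detected on 5 arrays and whose other entry, just outside the threshold, was detected on 3. The 8 genes with no kept entry were Cox4i2, Cox7b2, Cox8b, Cox8c, Ndufaf6, Ndufs1, Sdha and Uqcrfs1. Among them only Uqcrfs1 had an entry detected on any array (2 arrays). No level is given for these genes, which include the core subunits Ndufs1, Sdha and Uqcrfs1.

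Values below are log2 normalised intensities per array, and differences are log2 differences ± SE from limma, with p-values adjusted over all 10797 tested genes and a gene called where its adjusted p is under 0.05. In heart-derived cells against bone marrow MSC, 12 of 83 members were higher, where 26.4% of all tested genes were, and 23 were lower, where 29.6% of all genes were. In kidney-derived cells against bone marrow MSC, 11 members were higher, against 19.9% of all genes, and 22 were lower, against 24.3%. In kidney- against heart-derived cells, 13 members were higher, against 24.9% of all genes, and 11 were lower, against 24.1%. The lower calls, 27.7% and 26.5% of members in the comparisons with bone marrow, were near the share of all genes. The higher calls, 14.5%, 13.3% and 15.7% of members in the 3 comparisons in the order given, were below the shares of all genes, but those against bone marrow depended on 1 array. Without bone marrow replicate 1 they were 21.7% in heart, where 26.3% of all genes were higher, and 19.3% in kidney, near the 20.9% of all genes. With each array scaled to the same median in place of quantile normalization, 6 members were higher and 24 lower in heart against bone marrow, where 24.2% and 31.7% of all genes were. Under that scaling 11 were higher and 6 lower in kidney against heart, where 25.3% and 22.8% of all genes were. The comparisons with bone marrow share the 4 bone marrow arrays, and all 3 comparisons share an estimate of the spread that includes bone marrow. The median SD within a tissue over members was 0.183 in bone marrow, 0.0939 in kidney and 0.103 in heart. Over all genes it was 0.18, 0.143 and 0.136. Without bone marrow replicate 1, 17 members (20.5%) were lower in kidney against heart, where 25.7% of all genes were. With only the 2 tissues compared in the fit 17 were also lower, against 25.9% of all genes.

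**Figure D1:**
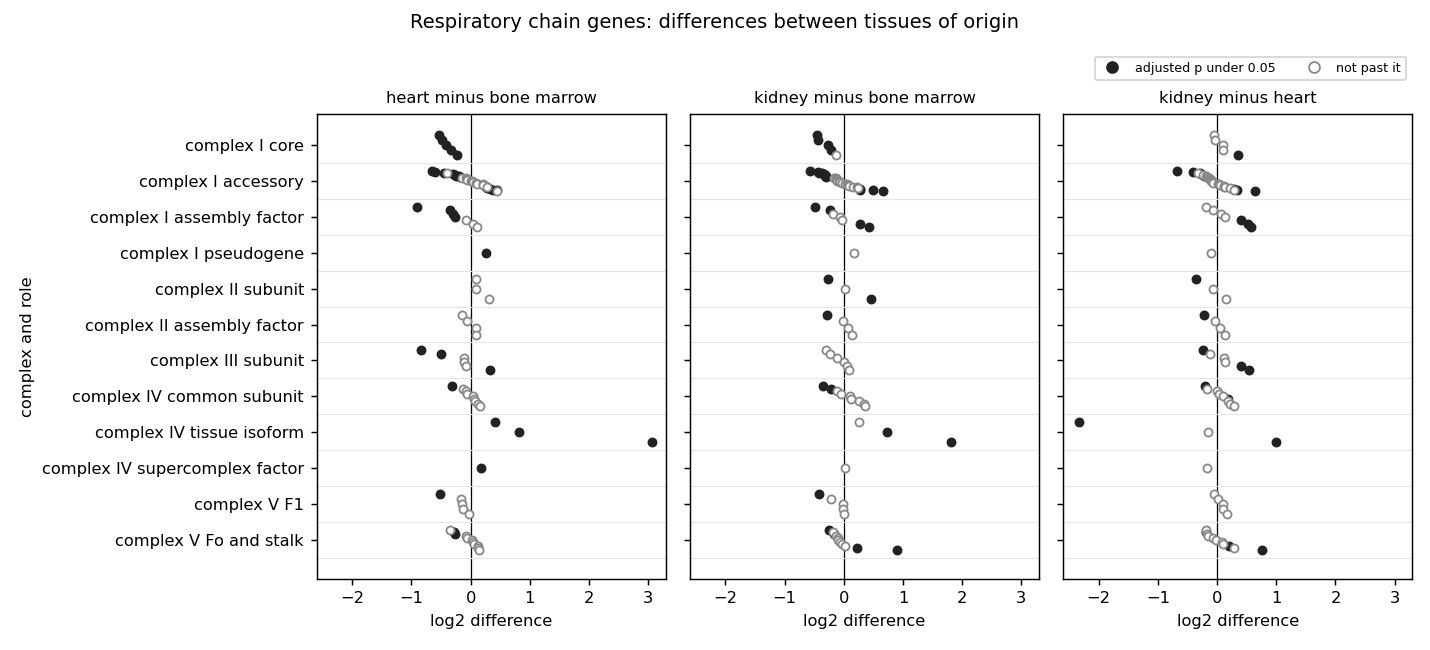
Each point is one of the 83 genes, placed by its log2 difference (horizontal axis) in the row of its complex and role, in one panel per comparison (heart against bone marrow, kidney against bone marrow, kidney against heart). Filled points have an adjusted p under 0.05. All 5 core subunits of complex I lie left of 0 in the first panel. The point farthest from 0 is Cox6a2 for kidney against bone marrow and Cox6b2 in the other panels.

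The sizes of the differences were modest. The median absolute log2 difference over members was 0.172 in heart against bone marrow, where it was 0.35 over all genes. It was 0.186 against 0.267 over all genes for kidney against bone marrow, and 0.153 against 0.293 for kidney against heart. A called log2 difference of 1 or more in size was seen for 1 of 83 members in each comparison, against 14%, 8.46% and 10.8% of all genes. That member was Cox6a2 in kidney against bone marrow and Cox6b2 in the others. Cox6b2 passed the detection filter only through the heart arrays, where it was high. In the authors' processed table its differences were 0.092 in heart against bone marrow and 0.243 in kidney against heart, neither called. The median signed difference over members was -0.055 in heart against bone marrow, -0.069 in kidney against bone marrow and 0.007 in kidney against heart. These lay near the -0.034, -0.038 and 0.022 over all genes. Across the 3 comparisons 50 members were called at least once and 33 never.

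The array of bone marrow replicate 1 stood apart for these genes. It was the highest of the 4 bone marrow arrays for 59 of 83 members (71.1%), against 32.6% of all tested genes, while bone marrow replicate 2 was the lowest for 42 (50.6%), against 20.3% of all genes. Replicate 1 exceeded replicate 2 by a median of 0.257 over members and by -0.019 over all genes. The gap was not even across the chain: its median was 0.444 over 28 accessory subunits of complex I and 0.371 over 11 subunits of the Fo part and stalk of ATP synthase, but -0.029 over the 5 core subunits of complex I and 0.037 over 5 F1 subunits. Without bone marrow replicate 1, 18 members were higher and 19 lower in heart against bone marrow, where 26.3% and 30.4% of all genes were. In kidney against bone marrow 16 were then higher and 17 lower, against 20.9% and 25.6% of all genes. Bone marrow replicate 1 also had the lowest mean raw signal of the 12 arrays, and the part of signal strength in this pattern was not tested. Shifts with smaller medians were seen in the other tissues. Heart replicate 4 was the lowest heart array for 40 members (48.2%, against 26.6% of all genes), with a median deviation of -0.068. Kidney replicate 1 was the lowest kidney array for 36 (43.4%, against 27.2%), with a median deviation of -0.053.

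**Figure D2:**
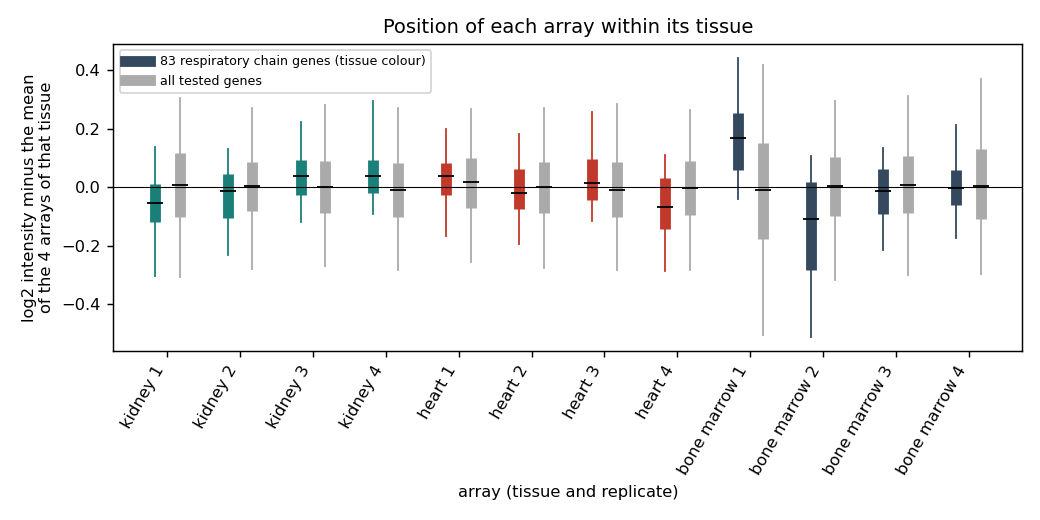
For each array, the vertical axis gives log2 intensity minus the mean of the 4 arrays of that tissue, for the 83 genes (tissue colour) and all tested genes (grey). Thick bars span the middle 50% of genes, thin lines the range that leaves out the lowest and highest 5%, and the tick is the median, which for members is 0.169 on bone marrow replicate 1 and -0.11 on bone marrow replicate 2.

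Another limit touches single genes. For 19 of the 83 genes the entry used carries an identifier that stands on more than 1 row of the deposited raw table with different signals, and the sources used here do not say which row is the gene's own probe. Such genes are marked below as having a repeated identifier. In the authors' deposited processed table, which has 1 value per identifier, 9 called differences of 7 genes took the opposite sign, and all 7 genes have a repeated identifier.

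Complex I is the entry point for NADH electrons. Its 5 measured core subunits were all lower in heart-derived cells than in bone marrow MSC, by 0.23 to 0.54 on the log2 scale, and 4 of 5 were lower in kidney-derived cells. Over all genes 29.6% were called lower in heart and 24.3% in kidney against bone marrow. Ndufs8, a subunit that carries iron-sulphur clusters toward the quinone site, had 12.35, 12.31, 12.47 and 12.48 in kidney-derived cells, 12.27, 12.25, 12.30 and 12.37 in heart-derived cells and 12.85, 12.90, 12.82 and 12.77 in bone marrow MSC. The 4 bone marrow arrays lay above all 8 others, with differences of -0.54 ± 0.07 (adjusted p = 7.14e-07) in heart and -0.43 ± 0.07 (adjusted p = 2.04e-05) in kidney against bone marrow. Ndufs7, which holds the last cluster before coenzyme Q, had 12.80, 12.81, 12.99 and 12.87 in kidney-derived cells, 12.49, 12.51, 12.52 and 12.58 in heart-derived cells and 13.12, 13.04, 12.91 and 12.94 in bone marrow MSC. The heart arrays were the lowest without overlap, -0.48 ± 0.07 (adjusted p = 4.36e-06) against bone marrow, while kidney against bone marrow was -0.13 ± 0.07 and not called. Ndufs7 was also higher in kidney- than in heart-derived cells, by 0.35 ± 0.07 (adjusted p = 0.000228).

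Ndufv1, the subunit that binds NADH and the flavin, had 13.09, 12.86, 12.96 and 12.78 in kidney-derived cells, 12.93, 13.01, 12.87 and 13.01 in heart-derived cells and 13.43, 13.46, 13.33 and 13.27 in bone marrow MSC. Kidney and heart arrays overlapped each other and lay below all 4 bone marrow arrays, with -0.42 ± 0.07 (adjusted p = 5.99e-05) in heart and -0.45 ± 0.07 (adjusted p = 4.4e-05) in kidney against bone marrow. Its partner Ndufv2 had 13.31, 13.33, 13.35 and 13.27 in kidney-derived cells, 13.40, 13.31, 13.31 and 13.43 in heart-derived cells and 13.55, 13.58, 13.58 and 13.66 in bone marrow MSC. The bone marrow arrays again lay above the rest, with differences of -0.23 ± 0.06 (adjusted p = 0.00287) in heart and -0.28 ± 0.06 (adjusted p = 0.000777) in kidney against bone marrow. Ndufs3, a scaffold subunit of the peripheral arm, had 12.29, 12.09, 12.02 and 12.21 in kidney-derived cells, 11.95, 12.06, 12.03 and 12.15 in heart-derived cells and 12.34, 12.45, 12.28 and 12.44 in bone marrow MSC. The heart arrays lay below the bone marrow arrays, and 1 kidney array reached them. The heart difference from bone marrow was -0.33 ± 0.07 (adjusted p = 0.000862) and its kidney difference -0.22 ± 0.07 (adjusted p = 0.0201). The kidney call of Ndufs3 was lost on leaving out bone marrow replicate 2 (adjusted p = 0.0572), bone marrow replicate 4 (0.0549), kidney replicate 2 (0.0585) or kidney replicate 3 (0.0803).

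**Figure D3:**
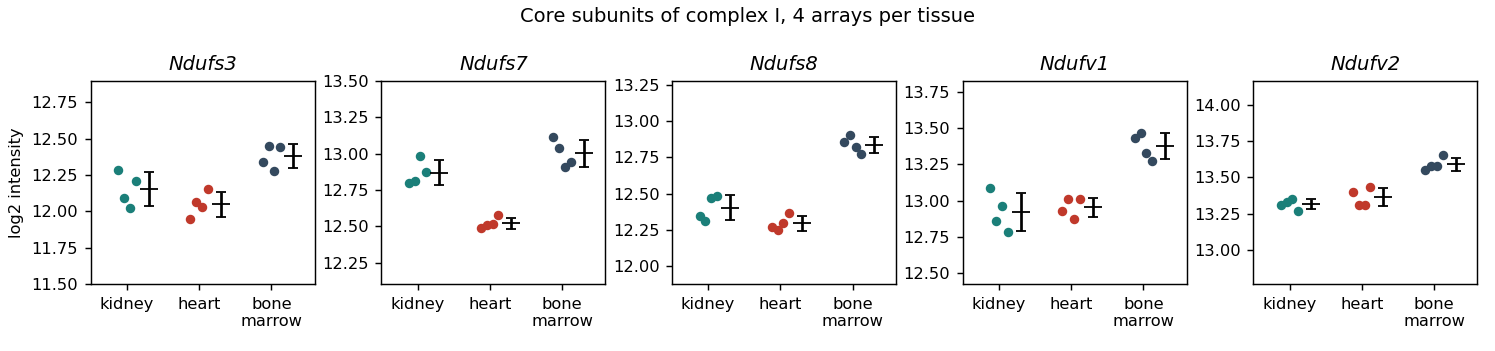
Log2 intensity (vertical axis, the same span of 1.4 in every panel) of the 5 core subunits of complex I on each array of kidney-derived cells, heart-derived cells and bone marrow MSC, with the mean and SD of 4 arrays beside the points. The bone marrow mean is the highest in all 5 panels, and Ndufs7 is the panel in which the kidney and heart points separate.

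Because these core genes were all called lower in heart against bone marrow, the promoters of Ndufs3, Ndufs7 and Ndufs8 are shown, with that of Uqcrc1 of complex III. Each window holds 250 bases before and 50 after the RefSeq start of the gene, 5′ to 3′ on the gene's strand (RefSeq, build GRCm38.p6), and capitals mark motif matches. The windows are Ndufs3 (chr2:90904672-90904971, minus strand), Ndufs7 (chr10:80249199-80249498, plus strand), Ndufs8 (chr19:3912725-3913024, minus strand) and Uqcrc1 (chr9:108936398-108936697, plus strand).
Ndufs3: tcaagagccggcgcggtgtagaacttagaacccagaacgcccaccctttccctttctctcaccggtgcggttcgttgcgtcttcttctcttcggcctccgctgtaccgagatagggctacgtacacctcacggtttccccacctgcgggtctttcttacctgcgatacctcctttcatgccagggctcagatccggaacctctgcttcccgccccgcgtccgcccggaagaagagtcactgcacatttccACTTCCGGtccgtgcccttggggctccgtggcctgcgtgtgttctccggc
Ndufs7: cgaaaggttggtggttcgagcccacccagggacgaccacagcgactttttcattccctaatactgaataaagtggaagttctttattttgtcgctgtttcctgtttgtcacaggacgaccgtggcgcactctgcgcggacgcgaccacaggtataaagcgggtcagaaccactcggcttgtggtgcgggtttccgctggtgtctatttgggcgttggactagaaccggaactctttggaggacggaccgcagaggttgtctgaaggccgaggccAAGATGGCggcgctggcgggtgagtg
Ndufs8: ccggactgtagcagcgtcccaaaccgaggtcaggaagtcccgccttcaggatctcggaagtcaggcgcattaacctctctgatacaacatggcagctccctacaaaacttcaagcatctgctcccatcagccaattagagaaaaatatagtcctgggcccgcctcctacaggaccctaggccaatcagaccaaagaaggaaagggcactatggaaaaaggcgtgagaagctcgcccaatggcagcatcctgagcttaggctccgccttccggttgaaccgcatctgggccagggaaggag
Uqcrc1: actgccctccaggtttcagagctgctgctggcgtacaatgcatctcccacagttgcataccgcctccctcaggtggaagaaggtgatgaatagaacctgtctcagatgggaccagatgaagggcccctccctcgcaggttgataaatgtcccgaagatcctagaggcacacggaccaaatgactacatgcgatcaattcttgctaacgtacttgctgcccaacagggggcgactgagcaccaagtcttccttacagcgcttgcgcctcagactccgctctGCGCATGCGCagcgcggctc

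Motifs of 4 factors known to act on respiratory chain genes were searched on both strands: GCGCATGC for nuclear respiratory factor 1, CCGGAAGT for ETS factors such as GABPA, AAGATGGC for YY1 and TNAAGGTCA for the oestrogen-related receptors. A RefSeq window was matched for 72 of the 83 genes. The nuclear respiratory factor 1 motif stood in 12 of them (16.7%), against 3.05% of 27025 genes in the promoter table and 5.69% of 8714 genes tested on the arrays. The YY1 motif stood in 11 (15.3%), against 3.19% and 5.15%. The ETS motif stood in 4 (5.56%), against 4.31% and 8.87%, and the receptor motif in 3 (4.17%), against 1.43% and 0.861%. In the printed windows Ndufs3 holds an ETS match, Ndufs7 a YY1 match and Uqcrc1 a pair of overlapping nuclear respiratory factor 1 matches, one on each strand. Ndufs8 holds none of these letters in its window. A match is a description of letters and not a binding site.

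Among the 28 accessory subunits of complex I, which surround the core, calls went both ways. In heart against bone marrow 6 were higher and 8 lower, in kidney against bone marrow 4 were higher and 9 lower, and in kidney against heart 3 were higher and 5 lower. Over all genes 26.4% were higher and 29.6% lower in heart against bone marrow. The shares of all genes were 19.9% and 24.3% in kidney against bone marrow, and 24.9% and 24.1% in kidney against heart. Ndufa12, which sits by the NADH-oxidising arm, had 12.54, 12.58, 12.67 and 12.60 in kidney-derived cells, 12.34, 12.21, 12.13 and 12.34 in heart-derived cells and 13.15, 12.72, 12.96 and 12.77 in bone marrow MSC. The heart arrays were lowest, -0.65 ± 0.09 (adjusted p = 2.24e-06) against bone marrow, and the kidney arrays lay between, 0.34 ± 0.09 (adjusted p = 0.0024) above heart. Ndufa8, a subunit with cysteine motifs on the intermembrane side (repeated identifier), had 13.22, 13.28, 13.35 and 13.32 in kidney-derived cells, 13.02, 12.95, 13.01 and 13.04 in heart-derived cells and 13.78, 13.62, 13.56 and 13.48 in bone marrow MSC. All 3 tissues separated, with -0.60 ± 0.07 (adjusted p = 2.46e-07) in heart and -0.32 ± 0.07 (adjusted p = 0.000738) in kidney against bone marrow, and its second kept entry gave -0.62 and -0.33.

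Other accessory subunits were higher in heart-derived cells. Ndufs4, whose loss causes Leigh-like disease in mice and humans (repeated identifier), had 13.07, 12.94, 13.01 and 13.11 in kidney-derived cells, 13.21, 13.09, 13.17 and 13.08 in heart-derived cells and 12.92, 12.70, 12.73 and 12.66 in bone marrow MSC. The kidney and heart arrays lay above the bone marrow arrays, by 0.38 ± 0.07 (adjusted p = 9.41e-05) in heart and 0.28 ± 0.07 (adjusted p = 0.00302) in kidney, and all 4 of its kept entries were called higher in both. Ndufc1, a small membrane-arm subunit (repeated identifier), was higher in heart than in bone marrow by 0.44 ± 0.11 (adjusted p = 0.00148). Ndufa13, also known as Grim19, had 14.41, 14.38, 14.52 and 14.55 in kidney-derived cells, 14.92, 14.87, 14.92 and 14.78 in heart-derived cells and 14.58, 14.46, 14.65 and 14.67 in bone marrow MSC. Heart lay above both other tissues without overlap, by 0.28 ± 0.06 (adjusted p = 0.000891) over bone marrow, and kidney was -0.40 ± 0.06 (adjusted p = 3.01e-05) against heart. With each array scaled to the same median in place of quantile normalization, the heart call of Ndufa13 against bone marrow was lost (adjusted p = 0.106). Ndufa3 was 0.33 ± 0.14 (adjusted p = 0.0489) in heart against bone marrow and lost its call without any one of 8 arrays, with 0.13 without bone marrow replicate 2.

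Ndufv3, a small subunit of the NADH-oxidising arm (repeated identifier), was the accessory subunit with the largest fall in kidney- against heart-derived cells. It had 12.42, 12.52, 12.45 and 12.50 in kidney-derived cells, 13.18, 13.32, 13.15 and 12.94 in heart-derived cells and 13.05, 12.59, 13.04 and 12.97 in bone marrow MSC. Kidney arrays lay below all others, with differences of -0.68 ± 0.09 (adjusted p = 5.47e-06) against heart and -0.44 ± 0.09 (adjusted p = 0.000772) against bone marrow. The heart difference from bone marrow, 0.24 ± 0.09 (adjusted p = 0.037), was lost on leaving out bone marrow replicate 2 (0.177) or heart replicates 1 (0.0784), 2 (0.137) or 3 (0.0681), each given as the adjusted p. Ndufa7 and Ndufc1 were also called lower in kidney against heart, with differences over all settings of -0.305 to -0.252 and -0.387 to -0.234. Both calls were lost under median scaling (adjusted p = 0.0679 and 0.0665). That of Ndufc1 was also lost on leaving out single arrays, such as heart replicate 2 (adjusted p = 0.111).

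The largest called rises of accessory subunits in kidney against bone marrow were those of Ndufb4 and Ndufb9. Ndufb9 had 8.24, 8.40, 8.73 and 8.95 in kidney-derived cells, 8.27, 7.81, 8.08 and 7.62 in heart-derived cells and 8.26, 8.02, 7.92 and 8.17 in bone marrow MSC. Kidney replicates 3 and 4 were the highest, and the difference was 0.63 ± 0.16 (adjusted p = 0.00273) against heart and 0.49 ± 0.16 (adjusted p = 0.0182) against bone marrow. The call against bone marrow was lost without kidney replicate 3 (adjusted p = 0.0583), kidney replicate 4 (0.0865) or bone marrow replicate 3 (0.0565). Ndufb4 differed by 0.66 ± 0.23 (adjusted p = 0.0217) in kidney against bone marrow, where bone marrow replicate 2 gave 5.60 and the remaining bone marrow arrays 6.48 to 7.01. Without bone marrow replicate 2 its difference was 0.40 and not called (adjusted p = 0.0967), and without kidney replicate 4 its adjusted p was 0.0544. Ndufb6 was higher by smaller amounts in both kidney- and heart-derived cells than in bone marrow MSC, by 0.28 ± 0.07 (adjusted p = 0.00198) and 0.27 ± 0.07 (adjusted p = 0.0017), with adjusted p of 0.0576 and 0.0985 under median scaling. On the lower side, Ndufa10 fell against bone marrow in both kidney (-0.37 ± 0.06) and heart (-0.27 ± 0.06).

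For Ndufa5 and Ndufb11 (both repeated identifier), the call depended on the entry or table used. Ndufa5 was -0.43 ± 0.09 (adjusted p = 0.000715) in kidney and -0.30 ± 0.09 (adjusted p = 0.00888) in heart against bone marrow on its brighter entry, but its dimmer entry under the same identifier gave 0.23 and 0.35, neither called. The mean of both entries was -0.10 in kidney (adjusted p = 0.49) and 0.03 in heart. Ndufb11, with log2 values of 6.22 to 7.32, was -0.58 ± 0.20 (adjusted p = 0.0254) in kidney against bone marrow, and it was 0.085 in the authors' processed table. Its call was also lost without bone marrow replicate 1 or 2 or kidney replicate 1, 2 or 3, with adjusted p up to 0.0772.

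Of 7 assembly factors of complex I, which are not part of the finished enzyme, 0 were higher and 4 lower in heart against bone marrow, and 3 were higher and 0 lower in kidney against heart. Over all genes 26.4% were higher and 29.6% lower in heart against bone marrow, and 24.9% and 24.1% in kidney against heart. Ndufaf4, an early assembly factor, had 11.94, 11.82, 11.93 and 12.08 in kidney-derived cells, 11.44, 11.29, 11.26 and 11.48 in heart-derived cells and 11.96, 11.64, 11.67 and 11.39 in bone marrow MSC. The kidney arrays lay above all heart arrays, by 0.58 ± 0.10 (adjusted p = 5.95e-05), and a second kept entry gave 0.99. Against bone marrow it was -0.30 ± 0.10 (adjusted p = 0.0143) in heart and 0.28 ± 0.10 (adjusted p = 0.0258) in kidney, and that kidney call was lost without bone marrow replicate 2 (0.0539) or 4 (0.11) or kidney replicate 4 (0.092), given as adjusted p. Ndufaf2, a late factor related to Ndufa12, had 10.62, 10.53, 10.75 and 10.72 in kidney-derived cells, 10.13, 9.87, 10.30 and 10.24 in heart-derived cells and 10.56, 10.15, 9.98 and 10.21 in bone marrow MSC. Kidney lay above all heart arrays and overlapped bone marrow, with 0.52 ± 0.11 (adjusted p = 0.000872) against heart and 0.43 ± 0.11 (adjusted p = 0.00471) against bone marrow. Ndufaf7, a methyltransferase that modifies a core subunit (repeated identifier), had 9.19, 8.97, 9.15 and 9.16 in kidney-derived cells, 8.78, 8.78, 8.65 and 8.65 in heart-derived cells and 9.75, 9.72, 9.51 and 9.47 in bone marrow MSC. The 3 tissues separated, with differences of -0.90 ± 0.10 (adjusted p = 1.92e-07) in heart and -0.50 ± 0.10 (adjusted p = 0.000401) in kidney against bone marrow, but in the authors' processed table the differences were -0.002 and -0.011.

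Complex II, the succinate dehydrogenase of the citric acid cycle, had 3 subunits measured. In heart against bone marrow 0 of 3 subunits were called, and at an unadjusted p under 0.05 also 0 were. Sdhb, the iron-sulphur subunit (repeated identifier), had 11.04, 10.97, 11.004 and 11.26 in kidney-derived cells, 11.05, 11.10, 11.21 and 11.18 in heart-derived cells and 11.30, 11.07, 10.96 and 10.87 in bone marrow MSC. The tissues overlapped, and kidney and heart were 0.02 ± 0.09 and 0.09 ± 0.09 against bone marrow, although its second kept entry, under the same identifier, was called higher by 0.41 and 0.45. Sdhc, a membrane anchor (repeated identifier), had 12.26, 12.16, 12.12 and 12.17 in kidney-derived cells, 12.54, 12.47, 12.50 and 12.61 in heart-derived cells and 12.61, 12.36, 12.45 and 12.35 in bone marrow MSC. The kidney arrays lay below all others, with -0.35 ± 0.07 (adjusted p = 0.000334) against heart and -0.26 ± 0.07 (adjusted p = 0.00491) against bone marrow, but in the authors' processed table these values were -0.014 and 0.039. Sdhd, the other anchor, had 7.90, 7.83, 8.38 and 8.44 in kidney-derived cells, 7.95, 7.88, 8.25 and 7.88 in heart-derived cells and 7.80, 7.64, 7.40 and 7.90 in bone marrow MSC. Kidney against bone marrow was 0.45 ± 0.16 (adjusted p = 0.0234), with kidney replicates 3 and 4 the highest, and the call was lost without either of them (adjusted p = 0.0867 and 0.0966) or without bone marrow replicate 2 (0.0511) or 3 (0.088).

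Of the 4 complex II assembly factors, Sdhaf4, which helps mature the flavin subunit, was called lower in kidney-derived cells, -0.28 ± 0.07 (adjusted p = 0.00365) against bone marrow and -0.23 ± 0.07 (adjusted p = 0.014) against heart. The second of these calls was lost without heart replicate 1 (adjusted p = 0.0556). Sdhaf1, Sdhaf2 and Sdhaf3 were called in none of the 3 comparisons, with log2 differences between -0.14 and 0.14.

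In complex III, which passes electrons from coenzyme Q to cytochrome c, 6 subunits were measured. In heart against bone marrow 1 was higher and 2 lower, in kidney against heart 2 were higher and 1 lower, and in kidney against bone marrow limma called 0, with 2 of 6 at an unadjusted p under 0.05. In the same order, 56%, 49% and 44.2% of all genes were called in either direction. Uqcrc1, a core protein that also resembles processing peptidases, had 12.70, 12.76, 12.55 and 12.56 in kidney-derived cells, 12.20, 12.26, 12.13 and 12.39 in heart-derived cells and 12.79, 12.86, 12.61 and 12.76 in bone marrow MSC. Heart lay below both other tissues without overlap, with -0.51 ± 0.08 (adjusted p = 1.21e-05) against bone marrow, and kidney was 0.40 ± 0.08 (adjusted p = 0.000232) above heart. The small subunit Uqcrq, which contacts cytochrome b, had 8.75, 8.71, 8.63 and 8.62 in kidney-derived cells, 8.17, 8.36, 8.06 and 7.95 in heart-derived cells and 9.28, 9.03, 8.95 and 8.66 in bone marrow MSC. The heart arrays were again lowest, with -0.84 ± 0.13 (adjusted p = 1.11e-05) against bone marrow and kidney 0.54 ± 0.13 (adjusted p = 0.00137) above heart. Uqcrh, the acidic hinge subunit at the cytochrome c site, went the other way. It had 13.996, 13.92, 13.96 and 13.94 in kidney-derived cells, 14.28, 14.27, 14.12 and 14.13 in heart-derived cells and 13.95, 13.74, 13.89 and 13.89 in bone marrow MSC. Heart lay above both other tissues without overlap, by 0.33 ± 0.06 (adjusted p = 0.00016) over bone marrow, and kidney was -0.25 ± 0.06 (adjusted p = 0.00299) against heart.

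In complex IV the common subunits changed little, and the largest differences were those of the tissue isoforms Cox6a2 and Cox6b2. The entry of Cox6b2 passed the detection filter only through the heart arrays. The other tissue isoform, Cox7a1, differed from bone marrow by 0.405 in heart and 0.26 in kidney. Of 9 common subunits, 1 was called in heart against bone marrow, 2 in kidney against bone marrow and 2 in kidney against heart, beside 56%, 44.2% and 49% of all genes. Cox4i1, the largest nuclear subunit, lay between 14.12 and 14.33 on all 12 arrays and was called in no comparison. Cox6a1, Cox6b1, Cox6c, Cox7a2 and Cox7b were also not called in any. Ndufa4, once assigned to complex I and now to complex IV, was -0.35 ± 0.07 (adjusted p = 0.0005) in kidney against bone marrow. Its difference from heart, -0.21 ± 0.07 (adjusted p = 0.019), was lost without heart replicate 2 (adjusted p = 0.0838) or kidney replicate 1 (0.0576). Cox5b, a zinc-binding subunit (repeated identifier), was -0.31 ± 0.07 (adjusted p = 0.0011) in heart against bone marrow, and its second kept entry gave -0.26, but in the authors' processed table the difference was 0.073.

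Cox6a2 encodes the isoform of subunit 6a that predominates in heart and skeletal muscle. It had 7.70, 7.52, 7.65 and 7.60 in kidney-derived cells, 6.99, 6.26, 6.60 and 6.64 in heart-derived cells and 5.11, 6.02, 5.76 and 6.36 in bone marrow MSC. Kidney lay above all other arrays, and heart and bone marrow overlapped. The difference was 1.80 ± 0.21 (adjusted p = 9.91e-07) in kidney against bone marrow, 0.99 ± 0.21 (adjusted p = 0.000648) in kidney against heart and 0.81 ± 0.21 (adjusted p = 0.00315) in heart against bone marrow. Its paralogue Cox6a1, the form of most tissues (repeated identifier), was -0.05 ± 0.07, 0.03 ± 0.07 and -0.07 ± 0.07 in the same order, none called. The bone marrow signal of Cox6a2 was low, and the size of its differences depended on the processing. Over all settings they were 0.828 to 2.177, 0.518 to 1.123 and 0.31 to 1.054 in that order, called in each. The cardiomyocyte markers Myh6, Actc1, Myl7 and Pln were detected on 0 of 12 arrays, Myh7 on 3 kidney and 2 heart arrays and Tnni3 on 1 of each. Nppa was detected on 1 kidney array, Myl2 on 1 heart array and Ryr2 on 1 bone marrow array.

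Cox6b2 encodes an isoform of subunit 6b known best from testis. Its kept entry (repeated identifier) was detected on 1 kidney array, all 4 heart arrays and 0 bone marrow arrays. It had 5.89, 5.29, 5.36 and 5.56 in kidney-derived cells, 8.001, 7.96, 7.86 and 7.59 in heart-derived cells and 4.88, 4.82, 4.64 and 4.84 in bone marrow MSC. Heart lay above all other arrays, at least 4.56-fold higher than bone marrow, where the entry was not well above background. The entry passed the detection filter only through the heart arrays, so its calls are counted above but no p-value is given. The means were 5.52 in kidney and 7.85 in heart, and the kidney mean lay below the background bound of 5.66 computed for bone marrow, so no fold with kidney is given. In the authors' processed table, heart minus bone marrow was 0.092 and kidney minus heart 0.243, neither called. Cox6b1, the common form (repeated identifier), did not pass the test in any comparison, with log2 differences of 0.07 ± 0.08, -0.11 ± 0.08 and -0.18 ± 0.08 for heart against bone marrow, kidney against bone marrow and kidney against heart.

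The promoters of this paralogue pair lie on the same chromosome at Cox6b1 (chr7:30626065-30626364, minus strand) and Cox6b2 (chr7:4753045-4753344, minus strand), and neither window holds any of the 4 motifs.
Cox6b1: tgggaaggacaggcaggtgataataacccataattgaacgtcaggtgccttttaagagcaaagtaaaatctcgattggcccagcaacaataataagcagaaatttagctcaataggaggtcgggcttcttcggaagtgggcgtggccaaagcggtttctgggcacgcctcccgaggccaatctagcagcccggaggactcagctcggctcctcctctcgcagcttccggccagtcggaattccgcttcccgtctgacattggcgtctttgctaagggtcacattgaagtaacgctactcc
Cox6b2: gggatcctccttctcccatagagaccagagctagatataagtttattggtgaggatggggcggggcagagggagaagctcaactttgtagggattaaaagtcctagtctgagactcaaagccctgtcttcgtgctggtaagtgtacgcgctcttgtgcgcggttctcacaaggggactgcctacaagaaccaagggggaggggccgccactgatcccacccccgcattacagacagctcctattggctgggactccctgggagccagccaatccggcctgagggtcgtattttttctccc

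Cox7a1, the heart and muscle form of subunit 7a, had 8.80, 8.91, 8.80 and 8.89 in kidney-derived cells, 9.06, 9.02, 9.04 and 8.86 in heart-derived cells and 8.99, 8.50, 8.41 and 8.45 in bone marrow MSC. Bone marrow replicate 1 lay with the heart arrays while the other bone marrow arrays lay below. Heart was 0.40 ± 0.12 (adjusted p = 0.00745) above bone marrow, and kidney was 0.26 ± 0.12 against bone marrow and not called. Its paralogue Cox7a2 was not called in any comparison. Cox7a2l, which joins complexes III and IV into supercomplexes, was 0.18 ± 0.07 (adjusted p = 0.042) in heart against bone marrow, and this call was lost without heart replicate 3 (0.0897) or 4 (0.139), bone marrow replicate 3 (0.124) or 4 (0.103) or kidney replicate 2 (0.0523), given as adjusted p.

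**Figure D4:**
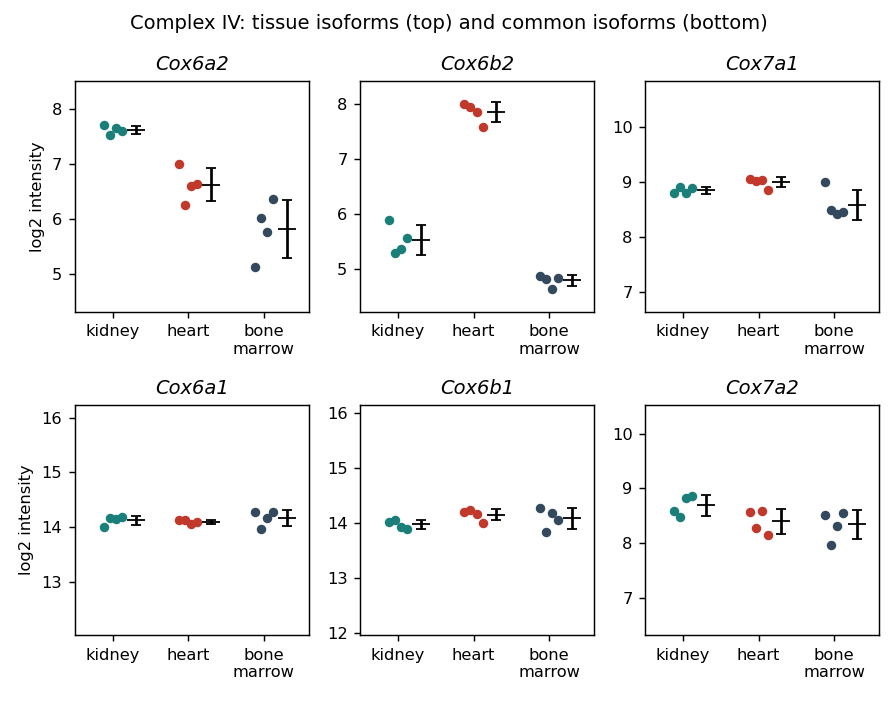
Log2 intensity (vertical axis, the same span of 4.2 in every panel) on each array of kidney-derived cells, heart-derived cells and bone marrow MSC for Cox6a2, Cox6b2 and Cox7a1 (top) and the common forms Cox6a1, Cox6b1 and Cox7a2 (bottom), with the mean and SD of 4 arrays beside the points. Cox6a2 is highest in kidney and Cox6b2 in heart, while no gene of the bottom panels was called in any comparison. Levels of different probes are not comparable.

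ATP synthase was the complex with the fewest calls by share in kidney against heart, 3 of 16 (18.8%), beside 28.9% of members and 49% of all genes. The calls of this complex in that comparison moved with the setting. Atp5j2, Atp5l and Atp5pb were not called, but under other settings their adjusted p was as low as 0.0163, 0.0226 and 0.0212. The calls of Atp5j and Atp5g3 were lost under median scaling (adjusted p = 0.157 and 0.312). Of 5 F1 subunits, which form the catalytic head, 1 was called in each comparison with bone marrow, where 56% of all genes were called in heart and 44.2% in kidney. That subunit was Atp5c1, the gamma shaft, which had 14.31, 14.29, 14.35 and 14.24 in kidney-derived cells, 14.14, 14.12, 14.19 and 14.33 in heart-derived cells and 14.82, 14.79, 14.59 and 14.68 in bone marrow MSC. Bone marrow lay above all other arrays, with -0.52 ± 0.07 (adjusted p = 1.16e-06) in heart and -0.42 ± 0.07 (adjusted p = 2.91e-05) in kidney relative to it. Atp5b, the catalytic beta subunit, lay between 15.64 and 15.84 on all arrays, but its mean raw signal of 54825 was close to the highest raw signal in the data, 64071. Atp5g3, a c-ring gene with a similarly high mean raw signal of 52168, was -0.29 ± 0.06 (adjusted p = 0.000386) in heart against bone marrow. Differences of such bright probes may be compressed, which was not tested.

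Among 11 subunits of the Fo part and stalk, 2 were lower in heart against bone marrow, 2 were higher and 2 lower in kidney against bone marrow, and 2 were higher and 1 lower in kidney against heart. In the same order, 56%, 44.2% and 49% of all genes were called in either direction. Atp5md, a small membrane subunit also called DAPIT, had 6.83, 6.86, 7.45 and 7.49 in kidney-derived cells, 6.40, 5.90, 6.89 and 6.41 in heart-derived cells and 6.78, 5.98, 6.05 and 6.25 in bone marrow MSC. Kidney replicates 3 and 4 were highest and the kidney and heart arrays overlapped at the edge, with differences of 0.89 ± 0.22 (adjusted p = 0.00294) against bone marrow and 0.76 ± 0.22 (adjusted p = 0.00829) against heart. Its kept entry was detected on all 12 arrays, but with a low mean raw signal of 214.7. Its other entry, with a mean raw signal of 127.1, was detected on 0 arrays. Over all settings the Atp5md differences were 0.408 to 1.064 against bone marrow and 0.353 to 0.92 against heart, called in each. Atp5pb, the b subunit of the stalk, was the single member whose entries were called in opposite directions. Its brightest entry was 0.23 higher in kidney than in bone marrow, and another entry under a different identifier was lower, at -0.57, with the remaining 2 entries not called. The call of the brightest entry was lost without bone marrow replicate 3 (adjusted p = 0.0718) or 4 (0.0601) or kidney replicate 3 (0.106) or 4 (0.0727), and under median scaling (0.0501).

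**Figure D5:**
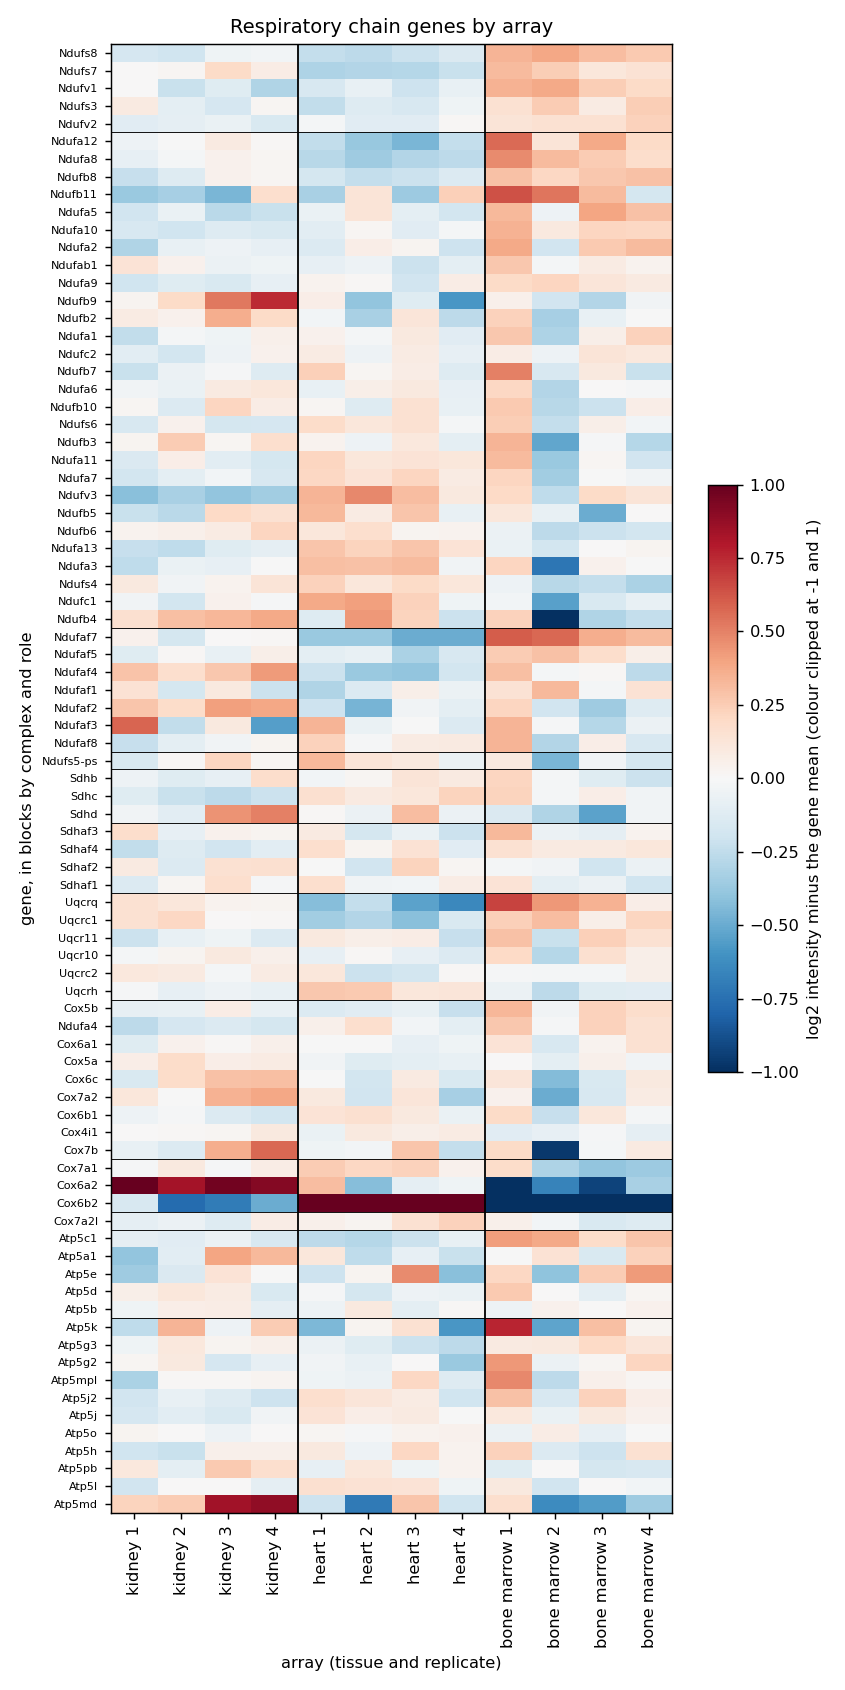
Each row is one of the 83 genes, in blocks by complex and role, and each column an array, kidney, then heart, then bone marrow, with colour for log2 intensity minus the gene's mean over 12 arrays (clipped at -1 and 1). The core block of complex I at the top is red across the 4 bone marrow columns, and the first bone marrow column is red through much of the remaining plot.

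At the level of single entries, 48 of 117 kept member entries were called in heart against bone marrow, where 51.6% of all kept entries were. In kidney against bone marrow 45 were called, against 39.2% of all entries, and in kidney against heart 30, against 43.8%. Of 26 member genes with several kept entries, 0, 1 and 0 had entries called in opposite directions in the 3 comparisons. Of the same genes, 12, 11 and 6 were called on their brightest entry. All kept entries gave the same call for only 6, 5 and 3 of these.

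Genes that work beside the chain were counted in lists chosen with earlier results of these data known. Their counts stand beside shares over all genes of 26.4% higher and 29.6% lower in heart against bone marrow, 19.9% and 24.3% in kidney against bone marrow, and 24.9% and 24.1% in kidney against heart. Of 12 genes of cytochrome c and coenzyme Q synthesis, 0 were higher and 6 lower in heart against bone marrow, 2 were higher and 5 lower in kidney against bone marrow, and 6 were higher and 1 lower in kidney against heart. Cyc1, the cytochrome c1 of complex III, was -0.62 ± 0.09 (adjusted p = 5.45e-06) in heart against bone marrow and 0.51 ± 0.09 (adjusted p = 8.25e-05) in kidney against heart. Cytochrome c itself, Cycs, was -0.46 ± 0.09 (adjusted p = 0.000376) and 0.55 ± 0.09 (adjusted p = 6.43e-05) in the same comparisons. Coq4 was -0.90 ± 0.12 (adjusted p = 3.4e-06) in heart and -0.46 ± 0.12 (adjusted p = 0.00455) in kidney against bone marrow. Coq10b was not called in heart against bone marrow. In kidney it was 0.55 ± 0.10 (adjusted p = 0.000129) against bone marrow and 0.75 ± 0.10 (adjusted p = 2.79e-06) against heart. Of 15 complex IV assembly genes, 2 were higher and 6 lower in heart against bone marrow, 4 and 3 in kidney against bone marrow, and 7 and 2 in kidney against heart. Cox20, a chaperone of a mitochondrially encoded subunit, was higher in both heart (0.87 ± 0.13) and kidney (0.86 ± 0.13) than in bone marrow.

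A list of 15 genes joined the citric acid cycle with enzymes that act on pyruvate (Pdha1, Pdhb, Dlat, Dld and Pcx). Of these 15, 1 was higher and 7 lower in heart against bone marrow, 1 was higher and 5 lower in kidney against bone marrow, and 5 were higher and 3 lower in kidney against heart. The higher gene was Pdha1 in heart and Dlat in kidney against bone marrow. Pcx, detected on 0 kidney arrays, was among the lower genes in both kidney comparisons. The lower share in kidney against bone marrow, 33.3%, was near that of all genes, 24.3%. Citrate synthase, Cs, was -0.42 ± 0.07 (adjusted p = 4.07e-05) in heart against bone marrow and 0.48 ± 0.07 (adjusted p = 9.5e-06) in kidney against heart. Fumarase, Fh1, was -0.52 ± 0.07 (adjusted p = 3.41e-06) and 0.48 ± 0.07 (adjusted p = 1.4e-05) there. Of 13 genes for mitochondrial import and folding, 0 were higher and 8 lower in heart against bone marrow, 5 were higher and 1 lower in kidney against bone marrow, and 12 were higher and 0 lower in kidney against heart. The intermembrane chaperone Timm10 was 1.07 ± 0.13 (adjusted p = 1.04e-06) in kidney against heart, and the matrix chaperonin Hspd1 was 0.84 ± 0.07 (adjusted p = 1.36e-08). The median of this list in kidney against heart was 0.445, beside 0.007 over the respiratory chain members and 0.022 over all genes.

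Of 10 regulators of mitochondrial biogenesis, 0 were higher and 6 lower in heart against bone marrow, 1 was higher and 3 lower in kidney against bone marrow, and 6 were higher and 0 lower in kidney against heart. The 30% that were lower in kidney against bone marrow were near the 24.3% of all genes. Ppargc1b, a coactivator of the PGC-1 family, was -1.98 ± 0.16 (adjusted p = 2.21e-09) in heart and -1.14 ± 0.16 (adjusted p = 8.85e-06) in kidney against bone marrow. Tfam, which packages mitochondrial DNA, was -0.52 ± 0.08 (adjusted p = 2.72e-05) in heart and -0.31 ± 0.08 (adjusted p = 0.00538) in kidney. Nrf1 itself, the factor of the motif above, was -0.38 ± 0.10 (adjusted p = 0.00249) in heart against bone marrow and -0.14 ± 0.10 in kidney, the second not called. Of 7 genes of the hypoxic switch of respiration, 3 were higher and 1 lower in heart against bone marrow, 2 and 1 in kidney against bone marrow, and 2 and 4 in kidney against heart. Egln3 was 1.48 ± 0.19 (adjusted p = 1.26e-06) in heart and 0.93 ± 0.19 (adjusted p = 0.00045) in kidney against bone marrow, and -0.55 ± 0.19 (adjusted p = 0.019) in kidney against heart. Pdk1, a kinase that inhibits pyruvate dehydrogenase, was 0.74 ± 0.12 (adjusted p = 3.65e-05) in heart against bone marrow and -0.76 ± 0.12 (adjusted p = 4.11e-05) in kidney against heart. Of 6 genes in a list of carriers and uncoupling, which includes the ATP synthase inhibitor Atpif1, 0 were higher and 2 lower in heart against bone marrow. The counts were 1 and 1 in kidney against bone marrow, and 2 and 0 in kidney against heart. The adenine nucleotide carrier Slc25a5 was -0.38 ± 0.06 (adjusted p = 1.09e-05) in heart against bone marrow.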

How the data were processed

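Per the file headers, the raw table that the authors deposited gives an intensity for every probe and array without normalization, beside a detection fraction that rises with the signal. The authors' processed table, made with lumi per the submitters' processing notes, was used as an alternative only. Its settings and the genome build were not given in the sources used here. Intensities were background-corrected from the detection values, quantile-normalized with an offset of 16 and put on the log2 scale with limma 3.58.1 in R 4.3.3. Entries with a detection fraction above 0.95 on at least 4 arrays were kept, and the entry with the highest mean stood for a gene. All 12 arrays entered one linear model with 1 coefficient per tissue (eBayes with trend), tested 2-sided, with Benjamini-Hochberg adjustment over 10797 genes and a threshold of 0.05. The fit was tested on simulated data. Gene names came from the platform annotation. The number of arrays limits the precision. Where a gene was undetected throughout the dimmer tissue, a bound replaced the fold: the brighter tissue's mean was set against the dimmer tissue's, each dim array counting at its weakest detected signal or at the probe's value, whichever was higher. Named genes were, per comparison, the up to 8 largest called rises and falls, all of complex II and the tissue isoforms. Up to 4 per neighbouring list were also named, not always those with the largest differences. Others such as Ndufb6, Atp5g3, Cox5b and Ndufaf2 were named after their values were seen. Members, lists and motifs were chosen with earlier results of these data known.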

Additional observations from a re-analysis of the deposited data

Results flagged for a closer look

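Of 249 sets of 4 arrays (83 genes in 3 tissues), 13 had 1 array far from the other 3 for its gap relative to the range, and chance alone flags about 1 in 20. In kidney-derived cells, replicate 1 stood low for Atp5mpl (13.96, others 14.28 to 14.31) and for Ndufa2 (13.29, others 13.51 to 13.54). Kidney replicate 2 stood high for Cox5a (14.42, others 14.30 to 14.31) and Ndufs6 (13.59, others 13.37 to 13.39) and low for Ndufaf7 (8.97, others 9.15 to 9.19). Kidney replicate 3 stood high for Cox5b (14.42, others 14.26 to 14.27), and kidney replicate 4 for Cox4i1 (14.33, others 14.24 to 14.25). In heart-derived cells replicate 4 stood low for Atp5l (14.55, others 14.73 to 14.75), Ndufa3 (12.95, others 13.28 to 13.30) and Uqcr11 (13.67, others 13.97 to 14.00). In bone marrow MSC, replicate 1 stood high for Cox7a1 (8.99, others 8.41 to 8.50), replicate 2 low for Ndufv3 (12.59, others 12.97 to 13.05) and replicate 4 high for Uqcrc2 (13.46, others at 13.39). Values are log2 intensities. Several of these gaps are about 0.1 and arise where the other 3 arrays lie very close together.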

How the results depend on the processing

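Of 92 calls of member genes over the 3 comparisons, 45 held under every alternative that gave a value. With median scaling in place of quantile normalization the higher calls in heart against bone marrow were 6 and the lower calls in kidney against heart 6. Each is 7.23% of members, against 24.2% and 22.8% of all genes. The lower calls in kidney against heart were 7 with the authors' processed values, 17 with only the 2 tissues compared in the fit, and 17 with both bone marrow replicates 1 and 2 left out. With identifiers that do not repeat, 64 members remained in the fit, with 7 higher in heart against bone marrow, 12 lower in kidney against bone marrow and 6 lower in kidney against heart. That alternative and the joint removal of 2 bone marrow arrays were chosen after seeing the data. Leaving out 1 array gave 8 to 18 higher and 19 to 25 lower calls in heart against bone marrow, 6 to 16 higher (6 without kidney replicate 4, 16 without bone marrow replicate 1) and 16 to 23 lower in kidney against bone marrow, and 12 to 15 higher and 7 to 17 lower (7 without heart replicate 1, 17 without bone marrow replicate 1) in kidney against heart. Signs opposed those reported with the authors' processed values for Cox5b (0.073 in heart and 0.075 in kidney against bone marrow), Ndufb8 (0.145 and 0.117 there), Ndufaf5 (0.2), Ndufb11 (0.085) and Sdhc (0.039) in kidney against bone marrow, and Cox6b2 (0.243) and Ndufaf7 (-0.009) in kidney against heart. All 7 genes have a repeated identifier. With the mean of a gene's kept probes they opposed for Atp5pb (-0.253) and Ndufa5 (0.027) in heart against bone marrow. The cause was not tested. Replicate numbers are shared by the tissues, but same-numbered arrays did not deviate together (correlations of -0.203 to 0.133, 1 of 12 over 0.1), and 5 of 12 correlated best with their own number. With a replicate block the counts were 10 higher and 21 lower in heart, 12 and 22 in kidney against bone marrow, and 13 and 11 in kidney against heart, with 5 of 92 calls lost. The file headers name no slide, so a slide block was not run. Offsets of 1 and 50 and the removal of background correction kept all 92 calls.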
